A study of Mus musculus with 19 samples.

Results

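The genes described here are 10 that bring glucose into a cell and carry it down the glycolytic pathway to lactate: the glucose transporter Slc2a1 and the enzymes Hk1, Hk2, Gpi1, Pfkl, Aldoa, Pgk1, Eno1, Pkm, and Ldha. They were chosen by name from the pathway, by a rule that uses no measured value, but with earlier results of these data known. They are 10 of the 55487 genes listed for each mouse, and all 10 had enough counts to be among the 17875 genes tested.

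RNA was sequenced from intestinal crypts, the epithelial pits that hold stem cells and their dividing progeny, of 19 C57BL/6 mice with 1 library per mouse. By label 12 were female and 6 male, and 1 had no sex label. The study's paper describes its NT+/+ and NT-/- mice as carrying an Lgr5-EGFP reporter. Of the mice with free access to food (ad libitum, AL), 5 were NT+/+ and 4 were NT-/-, and of those kept without food for 48 hours (Fast), 5 were NT+/+ and 5 were NT-/-. NT+/+ mice carry the intact gene for neurotensin (NT, gene symbol Nts), a gut peptide hormone released after a meal, and NT-/- mice are knockouts of it. The comparisons ask how crypt expression of the pathway differs between fed and fasted mice in each genotype, and between genotypes in each nutrient state.

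Total counts per mouse ranged from 9059457 to 35068711, with a median of 18541819. Nts, the deleted gene, stood at 4.98 to 8.59 CPM (counts scaled to library size after TMM normalization) in the 10 NT+/+ mice and at 0.145 to 0.793 CPM in the 9 NT-/- mice. The labels of replicate 5 of the fasted NT+/+ group disagree on its genotype. Its title gives NT+/+, its genotype field gives NT-/-, and its Nts level was 5.43 CPM. It was kept in the NT+/+ group, and several results that rest on it are also given without it. Markers of crypt epithelium were present in every mouse, with a summed level over 9 genes of 15160 to 31300 CPM that overlapped between all 4 groups. Most of this sum came from Defa24 and Lyz1 (3352996 and 2415616 counts over all mice, against 505650 for Olfm4, the next). Its overlap therefore says little about the other markers and does not show an equal crypt content. Of these 9 markers, 2 were called lower with fasting in both genotypes by edgeR, namely Mki67, a marker of dividing cells (log2 fold changes -0.46 and -0.59 in NT+/+ and NT-/- mice, adjusted p = 0.000866 and 0.000119), and Olfm4, a marker of crypt base stem cells (-0.63 and -0.92, adjusted p = 0.0322 and 0.00409), and none was called higher. By sign alone, 6 of the 9 crypt markers lay above 0 and 3 below in NT+/+ mice, and 2 above and 7 below in NT-/- mice. The stem cell markers Ascl2 and Lgr5 lay above 0 in NT+/+ mice, unlike Olfm4. edgeR called neither there (log2 fold changes 0.63 and 0.29, adjusted p = 0.114 and 0.287). The summed level of 8 markers of villus enterocytes, the absorptive cells above the crypts, moved with fasting. It ranged from 3819 to 7813 CPM in fed NT+/+ mice, from 5769 to 8539 CPM in fed NT-/- mice, from 7589 to 15820 CPM in fasted NT+/+ mice, and from 13950 to 18720 CPM in fasted NT-/- mice. Of these 8 markers, 6 were called higher with fasting in NT+/+ mice and 8 in NT-/- mice, and none was at 0 in any group. Summed markers of immune cells (54.9 to 143 CPM), stroma and muscle (6.19 to 14.6 CPM), endothelium (0.92 to 2.45 CPM), and red blood cells (3.75 to 30.7 CPM) overlapped between all 4 groups. Of the 6 immune markers, edgeR called 1 lower with fasting in each genotype (adjusted p = 0.000146 in NT+/+ and 0.00653 in NT-/- mice).

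Glycolysis splits glucose into pyruvate in the cytosol and yields ATP without oxygen. A hexokinase traps glucose as glucose 6-phosphate, phosphofructokinase commits it to the pathway, and lactate dehydrogenase turns pyruvate into lactate while restoring the NAD+ that the pathway uses. In the small intestine, crypt base cells and dividing progenitors are known to use glycolysis, whereas the enterocytes of the villus take up dietary sugars, fructose included. The hypoxia-inducible factor HIF-1 is a known activator of many of these genes and binds short DNA elements with the core ACGTG or GCGTG.

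The promoters of 3 of the genes are shown because these genes gave a call in both genotypes: Ldha and Hk2, which were lower after fasting, and Pfkl, which was higher. The sequences are from RefSeq on GRCm38.p6 and run from 5′ to 3′ on the gene's strand up to the base before an annotated transcription start. Those of Ldha (chr7:46845554-46845803, plus strand) and Hk2 (chr6:82774455-82774704, minus strand) are 250 bases long, and that of Pfkl (chr10:78009808-78010004, minus strand) is 197 bases, cut where an exon of another Pfkl transcript begins. Capitals mark ACGTG and GCGTG, which read CACGT and CACGC where they lie on the opposite strand, so CACGTG holds ACGTG on both strands.
Ldha: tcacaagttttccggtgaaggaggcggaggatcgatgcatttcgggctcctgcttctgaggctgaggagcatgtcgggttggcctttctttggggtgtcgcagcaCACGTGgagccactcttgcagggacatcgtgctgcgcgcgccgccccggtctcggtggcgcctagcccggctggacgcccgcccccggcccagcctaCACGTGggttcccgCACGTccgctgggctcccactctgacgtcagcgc
Hk2: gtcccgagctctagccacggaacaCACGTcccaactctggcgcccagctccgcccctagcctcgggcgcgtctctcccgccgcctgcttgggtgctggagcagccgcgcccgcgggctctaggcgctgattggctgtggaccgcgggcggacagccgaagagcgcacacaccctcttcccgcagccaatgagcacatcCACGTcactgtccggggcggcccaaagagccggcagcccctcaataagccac
Pfkl: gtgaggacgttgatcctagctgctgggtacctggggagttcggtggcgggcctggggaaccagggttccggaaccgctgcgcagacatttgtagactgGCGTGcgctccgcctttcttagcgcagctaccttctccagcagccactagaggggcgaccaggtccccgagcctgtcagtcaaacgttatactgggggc
The window shown for Ldha held CACGTG at 2 places and ACGTG once more on the opposite strand, that of Hk2 held ACGTG at 2 places, and that of Pfkl held GCGTG once. Ldha has another annotated start, and the window shown was picked as the one with more CACGTG. The other (chr7:46846832-46847081, plus strand) held GCGTG once and neither ACGTG nor CACGTG. Over the windows of 250 bases before the RefSeq starts of all 10 genes, 17 windows in all, ACGTG was found for 6 genes (Aldoa, Hk2, Ldha, Pgk1, Pkm, and Slc2a1), GCGTG for 5 (Eno1, Hk1, Ldha, Pfkl, and Slc2a1), and either for 9, the exception being Gpi1. Among 32851 windows of the same length, 16.6% held ACGTG, 28.2% held GCGTG, and 38.6% held either, against 13 of the 17 windows of these genes. The 17 windows are not separate, since 2 of Aldoa overlap at the same ACGTG and 2 of Eno1 at the same GCGTG sites, which are counted in each. CACGTG was in 6.02% of all windows and in 1 of the 17, the one shown for Ldha. These matches describe the sequence only.

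Levels of the 10 genes spanned more than 2 orders of magnitude when compared per length. In TPM, the deposited level scaled for gene length and library size, Ldha was the most abundant in fed NT+/+ mice at 671 ± 40.3 (SD, n = 5). A middle band held Aldoa at 239.9 ± 32.5, Pkm at 218 ± 16.0, Eno1 at 214 ± 8.65, Gpi1 at 213 ± 8.55, and Pgk1 at 133 ± 13.2 TPM. The order of Aldoa, Pkm, Eno1, and Gpi1 lay within their spread between mice. The transporter, both hexokinases, and Pfkl were far lower, with Hk2 at 14.7 ± 1.83, Pfkl at 13.8 ± 1.03, Slc2a1 at 7.03 ± 1.31, and Hk1 at 4.15 ± 0.777 TPM. Counts were lowest for Hk1, with 74 in the mouse with the fewest, and highest for Ldha, with at least 6039 in every mouse. Taken as a sum, the 10 genes made up 1729 ± 81.6 TPM in fed NT+/+ mice (n = 5), 1824 ± 265 TPM in fed NT-/- mice (n = 4), 1437 ± 173 TPM in fasted NT+/+ mice (n = 5), and 1638 ± 148 TPM in fasted NT-/- mice (n = 5).

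**Figure D1:**
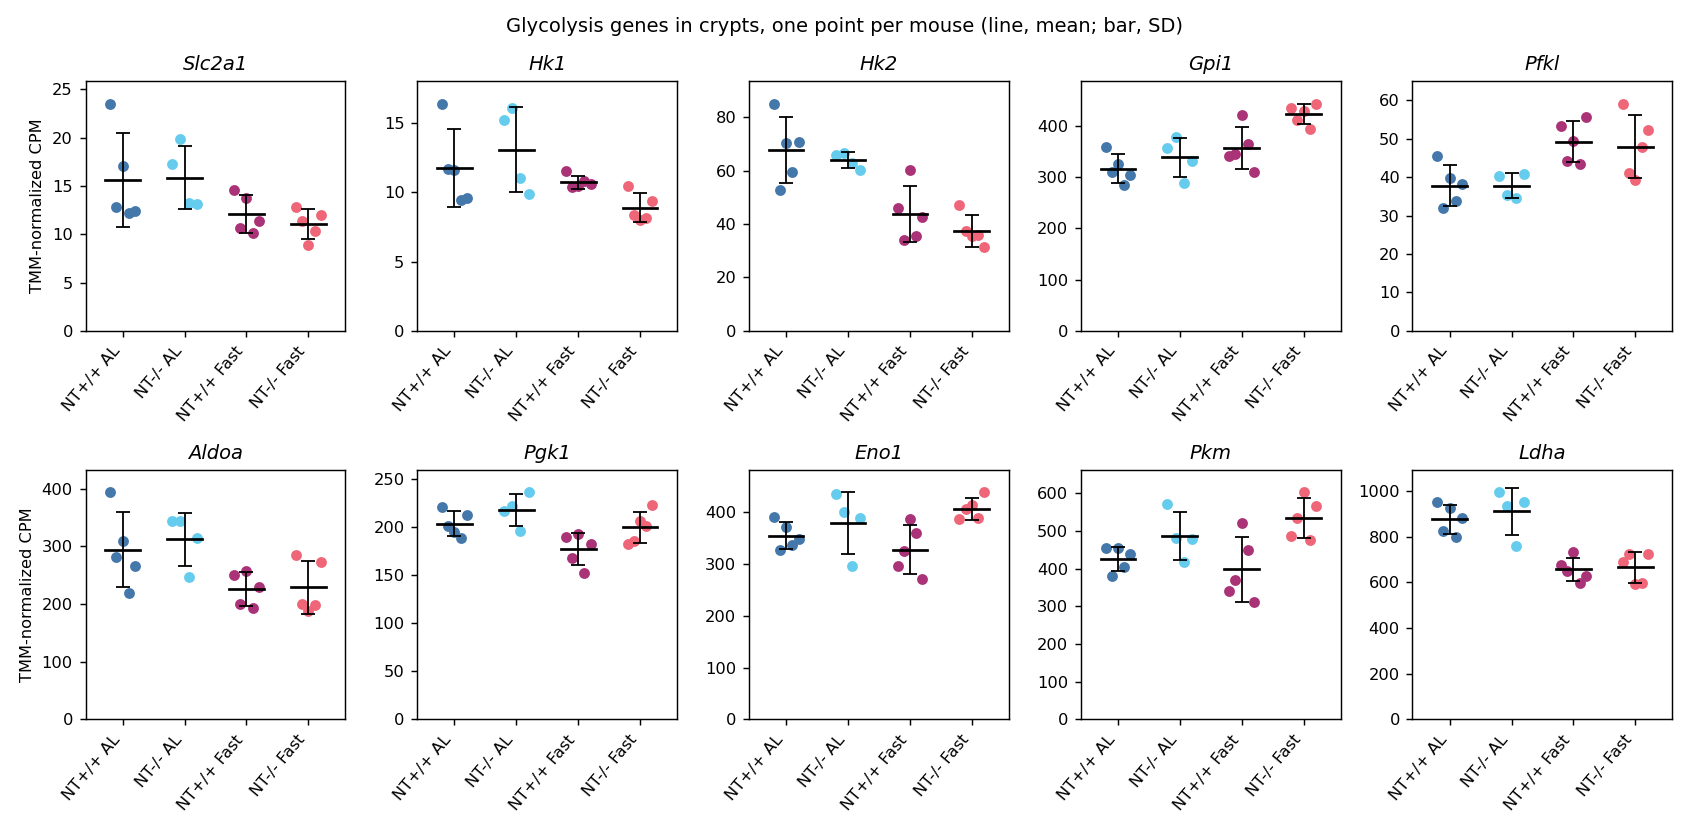
TMM-normalized CPM of each of the 10 glycolysis genes, one panel per gene, with the 4 groups on the horizontal axis, one point per mouse, a line at the mean and a bar of 1 SD, and each vertical axis starting at 0. The fasted mice lay below all fed mice for Ldha in both genotypes, whereas Pfkl was called higher after fasting in both.

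After fasting, genes of the pathway were called in both directions. In NT+/+ mice, 3 of the 10 genes passed edgeR's quasi-likelihood test at an adjusted p under 0.05, with Hk2 and Ldha lower and Pfkl higher. Among all genes tested, 21.6% were called in that comparison, 11.2% as higher and 10.4% as lower. In NT-/- mice, 6 of the 10 were called, with Hk1, Hk2, Aldoa, and Ldha lower and Gpi1 and Pfkl higher, against 25.2% of all genes, 12.5% as higher and 12.6% as lower. The median log2 fold change of the 10 genes was -0.17 in NT+/+ mice and -0.29 in NT-/- mice, against -0.0089 and -0.022 over all genes tested. A lower level in these bulk samples cannot be told apart from fewer cells of the kind that carries the transcript. The villus markers given above were higher after fasting in the same mice. Of the crypt markers, Mki67 and Olfm4 were lower and the others were not called. The part of villus or crypt cells in these calls was not tested. Without replicate 5 of the fasted NT+/+ group, 2 of the 10 genes were called in NT+/+ mice, against 3973 of 17844 genes. Without replicate 1 or without replicate 2 of the fed NT-/- group, 3 were called in NT-/- mice (Hk2, Gpi1, and Ldha). In these fits 3783 of 18103 and 3504 of 18168 genes were called.

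Glucose enters crypt cells in part through Slc2a1, the basal glucose transporter GLUT1 (GRCm38, chr4:119108711-119137983, plus strand). In fed NT+/+ mice Slc2a1 stood at 23.5, 12.8, 17.1, 12.2 and 12.4 CPM, and in fasted NT+/+ mice at 14.6, 10.6, 13.7, 10.1 and 11.4 CPM. In fed NT-/- mice it stood at 17.3, 19.8, 13.2 and 13.1 CPM, and in fasted NT-/- mice at 12.8, 11.3, 8.85, 10.4 and 12 CPM. The NT+/+ groups overlapped, and replicate 1 of the fed NT+/+ group was the highest of all mice. The NT-/- groups did not overlap, with every fasted mouse below every fed mouse, as was true, in one direction or the other, of 21.3% of all genes tested in NT-/- mice. Neither difference passed the test (log2 fold change -0.36, SE 0.18, adjusted p = 0.156 in NT+/+ mice, and log2 fold change -0.52, SE 0.19, adjusted p = 0.0514 in NT-/- mice). The NT-/- value lay close to the threshold and was called in 13 of 30 alternatives, with adjusted p from 0.0164 to 0.18. Among these were both fits with a replicate block (by the number in the titles or in the file names) and those without replicate 1 or 4 of the fed NT+/+ group, 3 or 4 of the fed NT-/- group, 1 of the fasted NT+/+ group, and 1 of the fasted NT-/- group.

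Hk2, the hexokinase that is known to respond to insulin and growth signals, was lower after fasting in both genotypes (chr6:82725025-82774454, minus strand). It stood at 85, 52.5, 70.3, 59.4 and 70.5 CPM in fed NT+/+ mice and at 46.1, 34, 60.2, 35.4 and 42.4 CPM in fasted NT+/+ mice. The fed NT-/- mice stood at 66, 66.5, 62.7 and 60.2 CPM and the fasted NT-/- mice at 47.3, 37.4, 35.5, 35.9 and 31.2 CPM. In NT+/+ mice only replicate 3 of the fasted group reached into the fed range, and in NT-/- mice the groups did not overlap. Hk2 fell to 0.647-fold in NT+/+ mice (log2 fold change -0.63, SE 0.14, adjusted p = 0.00405) and to 0.587-fold in NT-/- mice (log2 fold change -0.77, SE 0.15, adjusted p = 0.00111). Both calls held in all 30 alternatives, and the difference between the 2 fasting effects was not called (-0.14, 95% confidence interval -0.58 to 0.30).

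Hk1, the constitutive hexokinase bound to mitochondria (chr10:62268855-62379908, minus strand), differed less evenly. Its levels were 16.4, 11.7, 11.6, 9.44 and 9.62 CPM in fed and 11.5, 10.4, 10.4, 10.8 and 10.6 CPM in fasted NT+/+ mice. The fed NT-/- mice had 15.2, 16.1, 11 and 9.91 CPM and the fasted ones 10.5, 8.4, 7.98, 8.19 and 9.4 CPM. The fed groups were wide, with 1 high mouse in NT+/+ and 2 in NT-/-, and 4 of the 5 fasted NT-/- mice lay below every fed NT-/- mouse. Hk1 fell in NT-/- mice (log2 fold change -0.55, SE 0.16, adjusted p = 0.0165) and did not pass in NT+/+ mice (log2 fold change -0.13, SE 0.15, adjusted p = 0.592). The call in NT-/- mice was lost without replicate 1 or without replicate 2 of the fed NT-/- group, the 2 high mice, with adjusted p up to 0.075. The difference between the fasting effects of the genotypes (-0.42, 95% confidence interval -0.89 to 0.042) did not pass (adjusted p = 1).

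Gpi1 and Pfkl, which act on consecutive steps, were on the other side of 0. Gpi1 (chr7:34201330-34230336, minus strand) turns glucose 6-phosphate into fructose 6-phosphate. Gpi1 stood at 359, 310.1, 325, 284 and 304 CPM in fed and at 341, 345, 421, 364 and 309 CPM in fasted NT+/+ mice, which overlapped. It stood at 356, 378, 289 and 332 CPM in fed and at 434, 411, 428, 394 and 443 CPM in fasted NT-/- mice, with all 5 fasted mice above all 4 fed mice. Gpi1 rose in NT-/- mice (log2 fold change 0.32, SE 0.095, adjusted p = 0.0182) and did not pass in NT+/+ mice (log2 fold change 0.17, SE 0.089, adjusted p = 0.186). The call in NT-/- mice was lost in 3 of 30 alternatives, namely with no filter on low counts, with the mouse of disagreeing labels grouped as NT-/-, and without replicate 3 of the fed NT-/- group, the lowest of the fed NT-/- mice for Gpi1, with adjusted p up to 0.0866.

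Pfkl encodes the liver-type subunit of phosphofructokinase, which adds the second phosphate (chr10:77986947-78010083, minus strand). Pfkl stood at 45.4, 31.9, 39.8, 33.8 and 38.1 CPM in fed and at 53.4, 44.3, 49.3, 43.5 and 55.7 CPM in fasted NT+/+ mice. It stood at 40.3, 35.4, 34.6 and 40.9 CPM in fed and at 59.1, 41.2, 39.1, 47.9 and 52.4 CPM in fasted NT-/- mice. In both genotypes the groups overlapped, by replicate 1 of the fed group in NT+/+ mice and by replicate 3 of the fasted group in NT-/- mice. Pfkl rose to 1.303-fold in NT+/+ mice (log2 fold change 0.38, SE 0.11, adjusted p = 0.0204) and to 1.27-fold in NT-/- mice (log2 fold change 0.35, SE 0.12, adjusted p = 0.0424). In NT+/+ mice the call was lost without replicate 2 or 4 of the fed group, without replicate 5 of the fasted group (log2 fold change 0.33, adjusted p = 0.0511), or with that mouse grouped as NT-/- (log2 fold change 0.33, adjusted p = 0.0528). In NT-/- mice it was lost in 10 of 30 alternatives, with adjusted p up to 0.123, among them the fits without replicate 5 of the fed NT+/+ group, replicate 1, 2, or 3 of the fed NT-/- group, or replicate 1, 4, or 5 of the fasted NT-/- group.

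Aldoa, the aldolase that splits fructose 1,6-bisphosphate (chr7:126795234-126800751, minus strand), was called lower after fasting in NT-/- mice. Aldoa stood at 394, 282, 309.9, 218 and 267 CPM in fed and at 250.4, 199.6, 257, 193 and 229.8 CPM in fasted NT+/+ mice. It stood at 344, 345, 247 and 314 CPM in fed and at 285, 200.4, 189, 198 and 273 CPM in fasted NT-/- mice. The groups overlapped in both genotypes, and replicate 1 of the fed NT+/+ group was again the highest mouse. Aldoa fell in NT-/- mice (log2 fold change -0.45, SE 0.16, adjusted p = 0.0441), whereas the value of similar size in NT+/+ mice did not pass (log2 fold change -0.38, SE 0.15, adjusted p = 0.078). Aldoa was near the threshold in both. The NT-/- call was lost in 12 of 30 alternatives, with adjusted p up to 0.118, among them the fits without replicate 2 or 3 of the fed NT+/+ group, 1, 2, or 4 of the fed NT-/- group, 2 or 5 of the fasted NT+/+ group, or 2, 3, or 4 of the fasted NT-/- group. The NT+/+ value was called in 3 alternatives, with adjusted p down to 0.0142, namely with either replicate block (by the number in the titles or in the file names) and without replicate 4 of the fed NT+/+ group.

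The 3 genes of the lower, ATP-yielding part of the pathway did not pass in either genotype. Pgk1 (chrX:106187100-106203699, plus strand) makes the first ATP, Eno1 (chr4:150236721-150248879, plus strand) makes phosphoenolpyruvate, and Pkm (chr9:59656368-59679375, plus strand) makes pyruvate and the second ATP. For Pgk1 the values were 221, 201, 195, 189 and 213 CPM in fed and 190.1, 168, 193, 152 and 182 CPM in fasted NT+/+ mice (log2 fold change -0.20, SE 0.078, adjusted p = 0.0717). Pgk1 in NT-/- mice stood at 217, 222, 196 and 236 CPM when fed and at 182, 186, 206, 201 and 223 CPM when fasted (log2 fold change -0.12, SE 0.083, adjusted p = 0.298). The groups overlapped in both genotypes, and the NT+/+ value was called in 3 of 30 alternatives, with adjusted p down to 0.0244.

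For Eno1 the values were 390.3, 327, 369.9, 336 and 347 CPM in fed and 296, 325, 386, 358 and 269.9 CPM in fasted NT+/+ mice (log2 fold change -0.12, adjusted p = 0.465), and 434, 399, 295 and 387 CPM in fed and 386, 404, 413, 388 and 437 CPM in fasted NT-/- mice (log2 fold change 0.10, adjusted p = 0.563). For Pkm the values were 454, 379.7, 454, 405 and 438 CPM in fed and 339.7, 370.3, 522, 449 and 312 CPM in fasted NT+/+ mice (log2 fold change -0.10, adjusted p = 0.628), and 572, 482, 417 and 479 CPM in fed and 487, 535, 602, 477 and 567 CPM in fasted NT-/- mice (log2 fold change 0.13, adjusted p = 0.511). In the fasted NT+/+ group, replicates 1 and 5 were the lowest for both genes. The same 2 mice had the lowest summed villus markers of that group, at 7589 and 9432 CPM against 13730 to 15820 CPM in the other fasted NT+/+ mice, and the part of these cells in the levels was not tested.

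Ldha, the lactate dehydrogenase subunit that favors lactate (chr7:46841475-46855627, plus strand), separated fed from fasted mice in both genotypes. Ldha stood at 949.8, 825, 926, 799 and 882 CPM in fed and at 675, 652, 731, 598 and 627 CPM in fasted NT+/+ mice. It stood at 994, 936, 761 and 952 CPM in fed and at 691, 726, 592, 596 and 724 CPM in fasted NT-/- mice. Every fasted mouse was below every fed mouse of its genotype, and Ldha was the 1 gene of the 10 whose groups did not overlap in NT+/+ mice, where 14.6% of all genes tested had groups that did not overlap. Ldha fell to 0.75-fold in NT+/+ mice (log2 fold change -0.42, SE 0.092, adjusted p = 0.00312) and to 0.731-fold in NT-/- mice (log2 fold change -0.45, SE 0.10, adjusted p = 0.00203). Both calls held in all 30 alternatives, with log2 fold changes from -0.46 to -0.38 in NT+/+ mice and from -0.53 to -0.41 in NT-/- mice. Without replicate 5 of the fasted NT+/+ group Ldha fell by 0.40 on the log2 scale (adjusted p = 0.0076) and Hk2 by 0.62 (adjusted p = 0.00878).

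**Figure D2:**
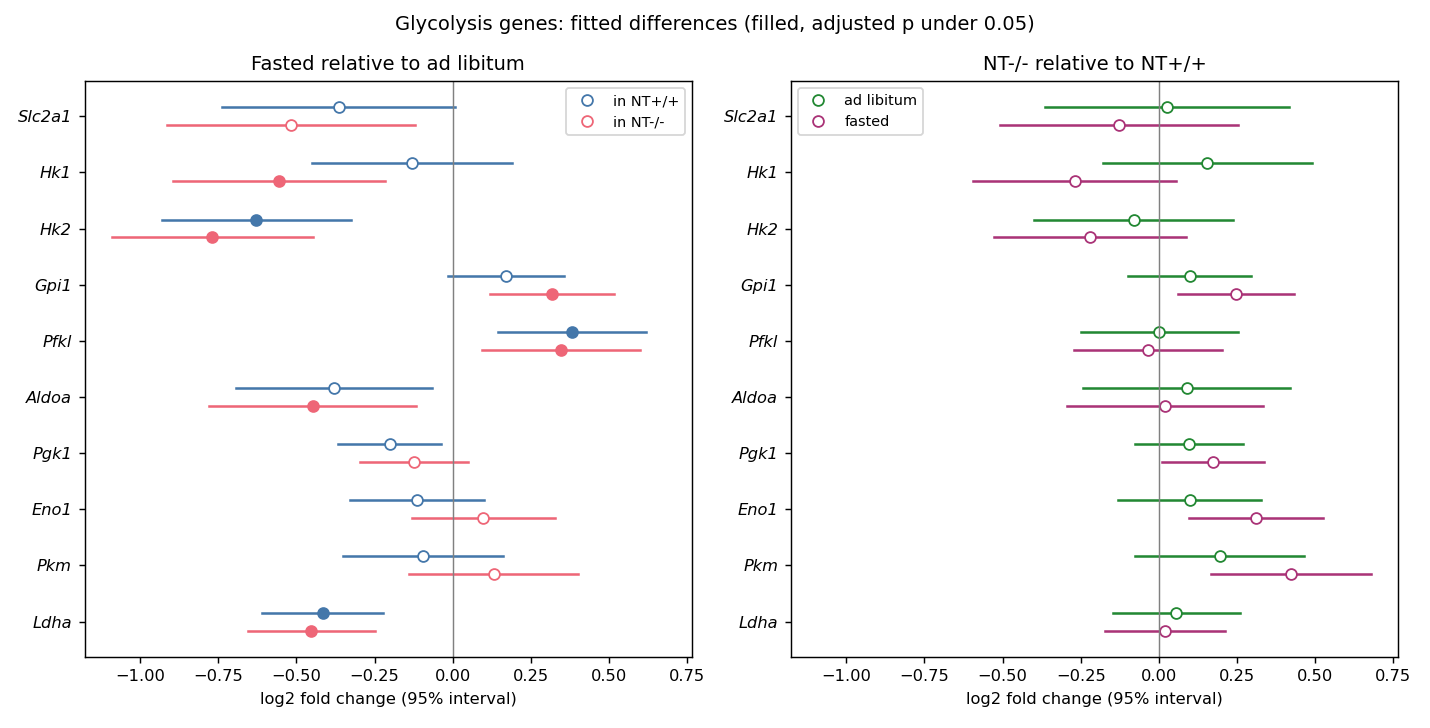
Fitted log2 fold changes of the 10 genes with 95% confidence intervals, fasted relative to ad libitum in each genotype (left) and NT-/- relative to NT+/+ in each nutrient state (right), with filled points at an adjusted p under 0.05. Hk2 and Ldha lie to the left of 0 and Pfkl to the right of it with filled points in both genotypes, whereas no point is filled in the genotype comparisons.

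Genotype gave no call among the 10 genes. In fed mice 0 of 10 passed edgeR's quasi-likelihood test and 0 had an unadjusted p under 0.05, DESeq2 called 0, against 0.00559% of all genes called by edgeR, which is 1 gene, and log2 fold changes ran from -0.081 for Hk2 to 0.19 for Pkm. In fasted mice 0 of 10 passed, again with 0.00559% of all genes called, and 4 had an unadjusted p under 0.05, each with the higher level in NT-/- mice, as did 1634 of the 17875 genes tested in either direction, against 299 in fed mice. By the same edgeR test fitted across all genes, these were Pkm (log2 fold change 0.42, 95% confidence interval 0.17 to 0.68, adjusted p = 0.3), Eno1 (log2 fold change 0.31, adjusted p = 0.344), Gpi1 (log2 fold change 0.25, adjusted p = 0.385), and Pgk1 (log2 fold change 0.17, adjusted p = 0.506). DESeq2 called Pkm alone of the 10 (adjusted p = 0.049), against 0.565% of all genes by that tool. Eno1 was the 1 gene whose fasted groups did not overlap, with 386.4 to 437 CPM in NT-/- mice and 269.9 to 386.0 CPM in NT+/+ mice, as was true of 1.56% of all genes tested. Without replicate 5 of the fasted NT+/+ group these log2 fold changes were 0.34 for Pkm and 0.25 for Eno1 (adjusted p = 0.507 and 0.555). The summed villus markers had medians of 18400 CPM in fasted NT-/- and 13730 CPM in fasted NT+/+ mice, with ranges that overlapped and 0 of 8 markers called by edgeR (3 at an unadjusted p under 0.05), and their part in these values was not tested.

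The effect of fasting was not shown to differ between genotypes for any of the 10 genes. The test of the difference called 0 of 10 genes and 0% of all genes, and 0 of the 10 had an unadjusted p under 0.05. DESeq2 also called 0 of the 10. The intervals of the difference (NT-/- minus NT+/+, log2) bound what could have been seen. They ran from -0.32 to 0.24 for Ldha and from -0.38 to 0.31 for Pfkl, and were wider for the low genes, from -0.70 to 0.39 for Slc2a1 and from -0.89 to 0.042 for Hk1.

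Several steps have isozymes from other genes, and the 10 genes are not always the abundant form in these crypts. Among hexokinases Hkdc1, a more recently described family member, stood at 102 ± 12.8 TPM in fed NT+/+ mice against 14.7 ± 1.83 TPM for Hk2. Among phosphofructokinases Pfkp, the platelet type, stood at 109 ± 15.0 TPM against 13.8 ± 1.03 TPM for Pfkl, and Pfkm, the muscle type, at 4.35 ± 0.249 TPM. Neither Hkdc1 (log2 fold change 0.079, adjusted p = 0.686 in NT+/+ mice, and log2 fold change -0.081, adjusted p = 0.692 in NT-/- mice) nor Pfkp (log2 fold change -0.28, adjusted p = 0.124, and log2 fold change -0.24, adjusted p = 0.202) passed the test with fasting. Ldha made up 99.92% to 99.96% of the TPM of Ldha and Ldhb on average in each group, and Pkm 74.0% to 78.4% of that of Pkm and Pklr, the liver-type pyruvate kinase.

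The share of Hk2 among the hexokinases went from a mean of 12.3% ± 2.19 (SD, n = 5) in fed to 8.90% ± 1.85 (n = 5) in fasted NT+/+ mice, and from 11.2% ± 1.74 (n = 4) to 7.24% ± 1.65 (n = 5) in NT-/- mice. That of Pfkl among the phosphofructokinases went from 10.98% ± 1.68 to 15.9% ± 2.80 in NT+/+ mice, and from 10.3% ± 0.454 to 15.1% ± 3.50 in NT-/- mice. By exact two-sided permutation tests over mice, adjusted over 10 share tests, the share of Hk2 differed by -3.37 percentage points in NT+/+ mice and by -3.98 points in NT-/- mice, each with an adjusted p of 0.0454. Pfkl rose by 4.97 points in NT+/+ mice (adjusted p = 0.0397) and by 4.82 points in NT-/- mice (adjusted p = 0.0454) by the same exact test. Pkm fell by 3.70 points in NT-/- mice (exact test, adjusted p = 0.0454), and in NT+/+ mice its difference of -3.47 points did not pass (adjusted p = 0.149). The exact p of 0.00794 for Pfkl in NT+/+ mice is the smallest that groups of these sizes can give, and smaller groups raise it. No share was called in either genotype without replicate 1, 3, 4, or 5 of the fed or replicate 2 or 4 of the fasted NT+/+ group, and none was called in NT-/- mice when any 1 of the 9 NT-/- mice was left out. Hk2 was also not called in NT+/+ mice without replicate 3 of the fasted NT+/+ group or without any 1 of the NT-/- mice, the p-values being adjusted over both genotypes. With replicate 5 of the fasted NT+/+ group left out, Hk2 and Pfkl were both called in NT+/+ mice (adjusted p = 0.0454), and with it grouped as NT-/-, Pfkl was called in both genotypes (adjusted p = 0.0381) and Hk2 in neither (adjusted p = 0.0529 and 0.0544). The mean differences themselves stayed between -4.25 and -2.87 points for Hk2 and between 3.97 and 5.598 points for Pfkl in NT+/+ mice with 1 mouse left out.

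**Figure D3:**
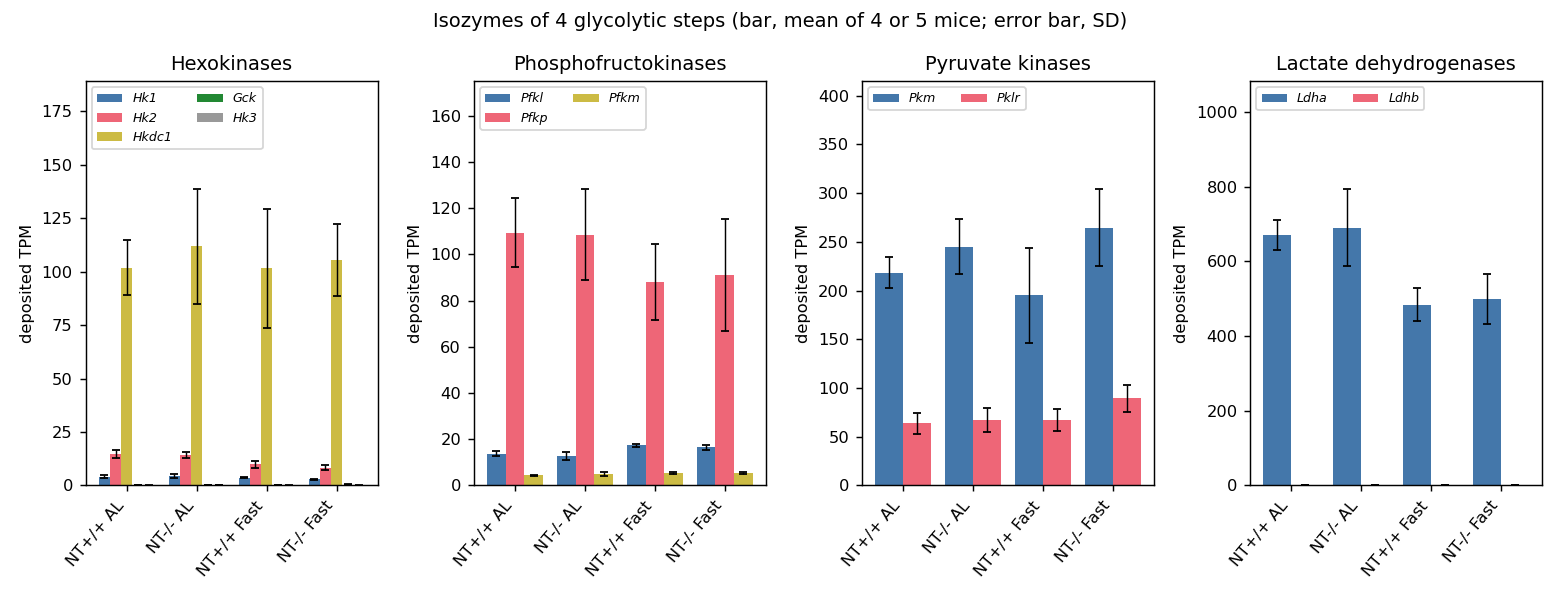
Mean deposited TPM of the isozymes of 4 glycolytic steps in the 4 groups, with bars from 0 and error bars of 1 SD over 4 or 5 mice. Hkdc1 (102 TPM) stands above Hk2 (14.7 TPM) and Pfkp (109 TPM) above Pfkl (13.8 TPM) in fed NT+/+ mice, as in the other groups, whereas Ldhb is close to 0.

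A wider list of 44 genes held the remaining glycolytic enzymes and isozymes, sugar and lactate transporters, and regulators of the pathway, and 39 of them could be tested. With fasting 9 were called higher and 1 lower in NT+/+ mice, against the 11.2% and 10.4% of all genes above, and 11 higher and 1 lower in NT-/- mice, against 12.5% and 12.6%. Its median log2 fold change was 0.14 in NT+/+ and 0.21 in NT-/- mice. The 1 lower gene was in both cases Pgam1, the phosphoglycerate mutase between Pgk1 and Eno1 (log2 fold change -0.37, adjusted p = 0.00847, and log2 fold change -0.43, adjusted p = 0.00344).

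Slc2a5, the fructose transporter GLUT5, went from 22.5 to 30.02 CPM (median 24.4) in fed to 40.6 to 78.1 CPM (median 54.4) in fasted NT+/+ mice (log2 fold change 1.24, SE 0.18, adjusted p = 7.6e-05), and from 22.0 to 39.8 CPM in fed to 73.4 to 116 CPM in fasted NT-/- mice (log2 fold change 1.64, SE 0.19, adjusted p = 6.65e-06). The fed and fasted ranges did not meet in either genotype. Epas1, which encodes the hypoxia-inducible factor HIF-2α, rose in both (log2 fold change 1.12, SE 0.20, adjusted p = 0.000505, and log2 fold change 1.31, SE 0.21, adjusted p = 0.000193). Pfkfb4, an enzyme that sets the level of fructose 2,6-bisphosphate, the activator of phosphofructokinase, also rose in both (log2 fold change 0.63, SE 0.12, adjusted p = 0.00111, and log2 fold change 0.87, SE 0.13, adjusted p = 9.77e-05). Aldoc, the brain-type aldolase, rose in both from a low level of at most 3.55 CPM in fed mice (log2 fold change 1.00, SE 0.19, adjusted p = 0.00116, and log2 fold change 1.41, SE 0.21, adjusted p = 7.07e-05). The summed villus markers given above were higher after fasting as well, and their part in them was not tested. Slc5a1 is on both lists. Without replicate 3 or without replicate 5 of the fed NT+/+ group, 6 genes of the wider list were called in NT+/+ mice in place of 10. In these fits 3320 of 17828 and 3305 of 17707 genes were called.

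A list of 20 HIF-1 targets outside glycolysis, of which 19 could be tested, went both ways. With fasting 2 rose and 3 fell in NT+/+ mice, and 4 rose and 3 fell in NT-/- mice, against the 21.6% and 25.2% of all genes called in these comparisons, with medians of -0.10 and 0.031 on the log2 scale. Ndrg1, a stress-response gene, had the smallest p of the list, going from 58.2 to 74.2 CPM in fed to 179 to 264 CPM in fasted NT+/+ mice (log2 fold change 1.71, SE 0.12, adjusted p = 9.79e-09), and from 75.2 to 99.9 CPM to 243 to 342 CPM in NT-/- mice (log2 fold change 1.84, SE 0.13, adjusted p = 9.61e-09). Bnip3, a mitophagy receptor, rose in both (log2 fold change 1.17, SE 0.18, adjusted p = 0.000108, and log2 fold change 1.36, SE 0.19, adjusted p = 3.45e-05). P4ha1, a subunit of collagen prolyl hydroxylase, fell in both (log2 fold change -0.85, SE 0.24, adjusted p = 0.0155, and log2 fold change -1.15, SE 0.26, adjusted p = 0.00296).

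Ankrd37 fell in NT+/+ mice (log2 fold change -1.13, adjusted p = 0.00948) and not past the test in NT-/- mice (log2 fold change -0.66, adjusted p = 0.126), at 0.36 to 2.30 CPM over all mice. Car9, carbonic anhydrase 9, fell in NT-/- mice (log2 fold change -0.48, adjusted p = 0.000338) and not past the test in NT+/+ mice (log2 fold change -0.20, adjusted p = 0.0757). The count of 5 in NT+/+ mice was 3 without replicate 1 of the fed NT+/+ group, and that of 7 in NT-/- mice was 4 without replicate 2 or 3 of the fed NT-/- group or without replicate 5 of the fasted NT-/- group. Over all genes the first of these fits called 3274 of 17757, and the others 3504 of 18168, 3442 of 18078, and 4042 of 17743. Without replicate 5 of the fasted NT+/+ group, 6 HIF-1 targets and 10 genes of the wider list were called in NT+/+ mice, against 3973 of 17844 genes. Between genotypes edgeR called 0 genes of either list. In fed mice 0 of the wider list and 1 HIF-1 target had an unadjusted p under 0.05, and DESeq2 called 0. In fasted mice 8 of 39 and 5 of 19 had, against 1634 of all 17875, and DESeq2 called 3 and 1, against 101 of all 17875. The test of the difference between fasting effects called 0 by either tool, with 2 and 1 at an unadjusted p under 0.05.

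**Figure D4:**
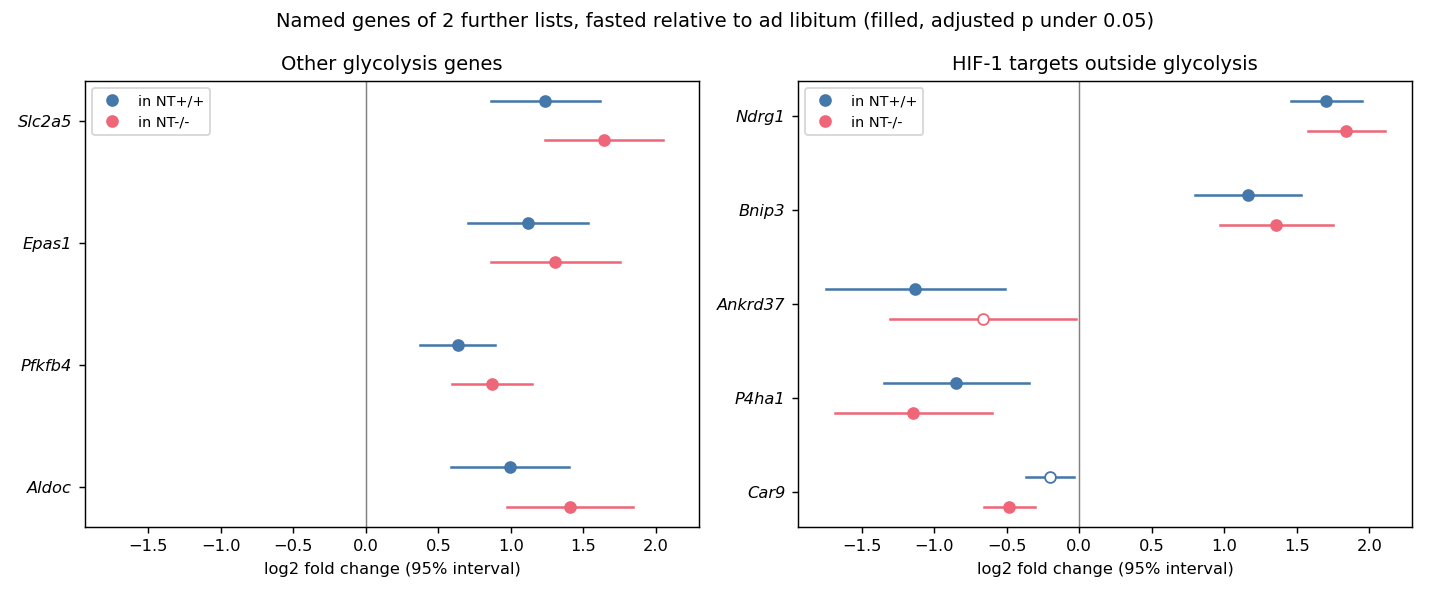
Log2 fold changes with 95% confidence intervals, fasted relative to ad libitum in NT+/+ and NT-/- mice, of the genes with the smallest p in a wider glycolysis list (left) and in a list of HIF-1 targets outside glycolysis (right), with filled points at an adjusted p under 0.05. All 4 genes on the left lie to the right of 0 in both genotypes, whereas on the right Ndrg1 and Bnip3 lie to the right and P4ha1, Ankrd37, and Car9 to the left.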

How the data were processed

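Single-end reads of ribosomal RNA–depleted crypt libraries were trimmed by the authors with Trimmomatic 0.39 and quantified with RSEM on GRCm38, per the submitters' processing notes. The RSEM version and strand setting are not given in the sources used here. Per the file headers, the deposited files give 3 quantities per gene that were used: an expected count (an unnormalized model estimate in which reads shared between genes are apportioned), a TPM value, and an effective length in bases. TPM was used to compare levels between genes, and the effective length only in an alternative for the isozyme shares. The deposited FPKM columns were not used.

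Expected counts were rounded to whole numbers. Of the 55487 genes listed, 55141 had a symbol. Genes passing filterByExpr (17875) were normalized by TMM and fitted with edgeR 4.0.16 (R 4.3.3) with 1 coefficient per group over all 19 mice, 15 residual degrees of freedom, and a biological coefficient of variation of 18.9%. edgeR's quasi-likelihood test was used, with Benjamini-Hochberg adjustment over all genes tested and a threshold of 0.05, and an SE was obtained from each log2 fold change and its F statistic (size over root F). Isozyme shares were compared by exact permutation tests (scipy 1.17.1). The fit was tested on simulated data. Coordinates are from GENCODE vM21, on GRCm38. Of the 2 Ensembl IDs named Aldoa, the one with more counts was used. Near-identical copies held at most 0.376% of the counts of a gene and its copies.

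The members and lists were chosen with earlier results of these data known. Named were all 10 genes, isozymes of their steps, and from each further list the 4 genes with the smallest p in each fasting comparison. A gene outside this rule that is named (Pgam1, P4ha2, Slc2a2, and Slc5a1) was chosen after its values were seen. Of the genes that meet the rule, 1 is left out, with the share that needs it. Alternatives were no filter, at least 10 counts in every mouse, median-of-ratios and upper quartile normalization, DESeq2 1.42.0, a replicate block (by title or by file-name number), adjustment for sex, reassignment to NT-/- of the 1 mouse whose labels disagree, fits restricted to the compared groups, addition of near-identical copies, and leaving out each mouse. Sex was labelled for all mice but 1.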

Additional observations from a re-analysis of the deposited data

How the results depend on the processing

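Over 30 alternatives the fasting calls of Hk2 and Ldha held in both genotypes, and Pfkl kept its positive sign in all 30 in each genotype. With each mouse left out in turn, the genes called with fasting numbered 3 to 7 of the 10 in NT-/- mice, 6 to 12 of the wider list in NT+/+ mice, 3 to 7 of the HIF-1 targets in NT+/+ and 4 to 10 in NT-/- mice, and 0 to 3 and 0 to 4 of the isozyme shares in NT+/+ and NT-/- mice. Over all genes the fits without a mouse called 3022 to 3973 in NT+/+ and 3442 to 4757 in NT-/- mice, in place of 3862 and 4499. HIF-1 targets called numbered 4 in NT-/- mice with no filter and 3 in NT+/+ mice with at least 10 counts in every mouse. In these settings 3670 of 34546 and 3795 of 13806 genes were called. The filter of 10 counts leaves Ankrd37 and P4ha2 untested (lowest counts 7 and 2), which were both called in NT+/+ mice in the main fit. DESeq2 called 1 of the 10 genes (Pkm), 3 of the wider list, and 1 HIF-1 target (Ndrg1) between the fasted genotypes, where edgeR called 0. Over all genes DESeq2 called 101 of 17875 in that comparison (0.565%). The cause of the other shifts was not tested.

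With the replicate block of the file names, 5 of the 10 genes and 10 HIF-1 targets were called in NT+/+ mice, and with that of the titles 4 and 7. Calls over all 17875 genes rose as well, to 5484 and 5006 in place of 3862. Either replicate block called 7 of the 10 genes in NT-/- mice and 0 between genotypes. Over all genes the blocks called 5672 and 5657 in NT-/- mice, in place of 4499. What the numbers stand for is not stated in the labels, but the file-name number goes with sex. Mice of file-name sets 1, 2, and 4 were all labelled female. Those of sets 3 and 5 were labelled male, apart from the 1 mouse without a label. Deviations from group means correlated at a mean r of 0.184 in 27 same-numbered pairs by title (lowest, -0.127) and 0.227 by file name (lowest, 0.067, with 24 of 27 over 0.1), against -0.046 and -0.056 in 108 other pairs. Mice of the same number were thus more alike on average than other mice, and the part of sex in this likeness was not tested. The main fit has no block and does not use this likeness.

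Changes of sign were seen in 42 values, 35 of them with a mouse left out, and none of these values was called. Pfkl between fed genotypes was -0.0011 with at least 10 counts and -0.0092 with the replicate block of the file names. Between fasted genotypes Aldoa was -0.0524 and Ldha -0.0066 with sex as a covariate, and Pfkl was 0.0508 and Ldha -0.0106 with the mouse of disagreeing labels as NT-/-, which gave 0.0499 for the difference between the fasting effects of Pfkl. With a mouse left out, fasting gave -0.2003 to 0.0207 for Hk1 in NT+/+ and -0.005 to 0.1708 for Eno1 in NT-/- mice. The fed genotypes gave -0.0965 to 0.2231 for Slc2a1, -0.1589 to 0.0161 for Hk2, -0.0545 to 0.0764 for Pfkl, and -0.0011 to 0.2162 for Aldoa. The fasted genotypes gave -0.1234 to 0.0315 for Pfkl, -0.0705 to 0.0826 for Aldoa, and -0.0132 to 0.0614 for Ldha. The difference between fasting effects gave -0.2422 to 0.0048 for Hk2, -0.1248 to 0.0303 for Pfkl, -0.1962 to 0.0212 for Aldoa, and -0.1128 to 0.0092 for Ldha. Depth limits Hk1 and Slc2a1 most, at 74 and 100 counts in the mouse with the fewest.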

Other observations

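In fasted mice Slc2a5 and Pklr, which were called higher with fasting in NT-/- mice, stood higher in NT-/- than in NT+/+ mice, but neither passed edgeR's quasi-likelihood test over all genes. The log2 fold changes were 0.77 for Slc2a5 (SE 0.18, unadjusted p = 0.000292, adjusted p = 0.193) and 0.39 for Pklr (SE 0.096, unadjusted p = 0.000569, adjusted p = 0.195). DESeq2 called both genes, against 0.565% of all genes tested. Without replicate 5 of the fasted NT+/+ group, edgeR called 0 genes of the wider list in this comparison. The values of Slc2a5 and Pklr without that mouse are not given here. Of the 39 tested genes of the wider list, 8 had an unadjusted p under 0.05 by edgeR in this comparison, against 1634 of all 17875. The 8 villus markers all lay above 0 in it as well (median log2 fold change 0.45). Of these, 3 had an unadjusted p under 0.05 and 0 were called, and their part in these values was not tested.

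2 other sugar transporters were named after their values were seen. Slc2a2, the basolateral transporter GLUT2, stood at 37.6 ± 12.9 TPM in fed NT+/+, 49.7 ± 10.6 TPM in fed NT-/-, 66.03 ± 29.9 TPM in fasted NT+/+, and 114 ± 23.1 TPM in fasted NT-/- mice (mean ± SD), and rose with fasting in NT-/- mice (log2 fold change 0.94, adjusted p = 0.0175), with an adjusted p of 0.121 in NT+/+ mice. Slc5a1, the sodium-coupled glucose transporter SGLT1 and also one of the villus markers, rose in both genotypes (log2 fold changes 0.50 and 0.70, adjusted p = 0.0463 and 0.0087).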
